A study of Bos taurus with 2 samples.

Results

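The collagen genes were examined in the *longissimus thoracis* (LT) muscle of Japanese Black fetuses whose dams were fed differently during pregnancy. The members were the genes with a bovine symbol of the form COL, digits, A, digits to which the accession of at least 1 probe on the array was matched, without regard to their signal. By this rule 21 genes with 79 probes were found among 12603 genes with a symbol on the array, whereas the gene table holds 44 collagen genes. The others, among them *COL5A1*, *COL5A2*, *COL6A3*, *COL4A2* and *COL14A1*, were not analysed here. The matched genes were 8 of the 11 fibrillar collagens, 2 of the 6 basement membrane (type IV) collagens, 2 of the 5 type VI collagens, 1 of the 10 FACIT collagens (fibril-associated collagens with an interrupted helix) and 8 of the 12 remaining collagens.

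The high-nutrition (HN) group received 120% and the low-nutrition (LN) group 60% of the nutritional requirement, and the muscle was taken at 8.5 months of gestation. For each group, the total RNA of 4 fetuses was pooled and hybridized to 1 one-color Agilent array. The fetuses of the HN pool were those with the highest bodyweight (BW) of their group and those of the LN pool those with the lowest, so the diet and the choice of fetuses by BW cannot be told apart. With 1 array per pool, the pools could not be compared by a test, and how far fetuses of a group differed is unknown.

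Collagens are secreted proteins whose chains wind around each other into a stiff triple helix. Fibrillar collagens, mainly of types I and III in muscle, form the fibers of the connective tissue that surrounds single muscle fibers and their bundles, and are made largely by fibroblasts. Type IV collagen forms the sheet of the basement membrane around each muscle fiber and each capillary, type VI collagen forms fine filaments that tie this sheet to the fibers, and FACIT collagens sit on the surface of the fibrils. The amount and crosslinking of this connective tissue contribute to the toughness of beef.

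Values are given as log2 LN/HN, the difference of the log2 normalized signals of both arrays, averaged over the probes of a gene that gave a fold, with the SD between these probes. Of the 79 collagen probes, 67 were well above background on both arrays, 3 on 1 array, of which 1 gave a fold, and 9 on neither. A value thus existed for 20 genes, with a median of 3 probes per gene. A gene or probe was called higher or lower in the LN pool when its log2 LN/HN was past 0.32 in that direction, the fold threshold with which the study made its gene lists. The median signal of all spots was 49.1 for HN and 48.4 for LN, and no collagen spot was saturated. The SD of log2 LN/HN between spots of the same probe was 0.085, and the median SD between probes of the same gene was 0.0995 over all genes. The Feature Extraction software put the error of the log2 LN/HN of a single measured collagen probe at 0.20 to 0.31. These errors describe the array measurement and not the animals.

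The collagen genes did not move together. Of the 20 genes with a value, 11 were higher and 9 lower in the LN pool, with a median log2 LN/HN of 0.050, against -0.0033 over all 19554 genes with a fold. The sign of the family's median depended on the scaling, since it was -0.022 when the 75th percentile was subtracted. The threshold was passed by 7 genes that were higher (*COL8A1*, *COL12A1*, *COL10A1*, *COL1A2*, *COL11A2*, *COL1A1* and *COL3A1*) and by none that was lower. That was 35.0% of the 20 collagen genes, whereas 8.85% of all genes were called higher and 9.11% called lower. Of the 16 collagen genes with at least 2 probes that gave a fold, 5 were called higher and none lower, whereas among all 7460 such genes the shares were 5.80% and 5.95%. Only *COL8A1* was past 2-fold, a threshold passed by 0.711% of all genes upward and 0.286% downward. In 12 of the 16 collagen genes with at least 2 such probes, every probe with a fold had the same direction, 7 of them higher and 5 lower. How often this holds among all 7460 such genes was not counted. Probes of a gene read the same RNA, so this count is not a trait particular to collagens.

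**Figure D1:**
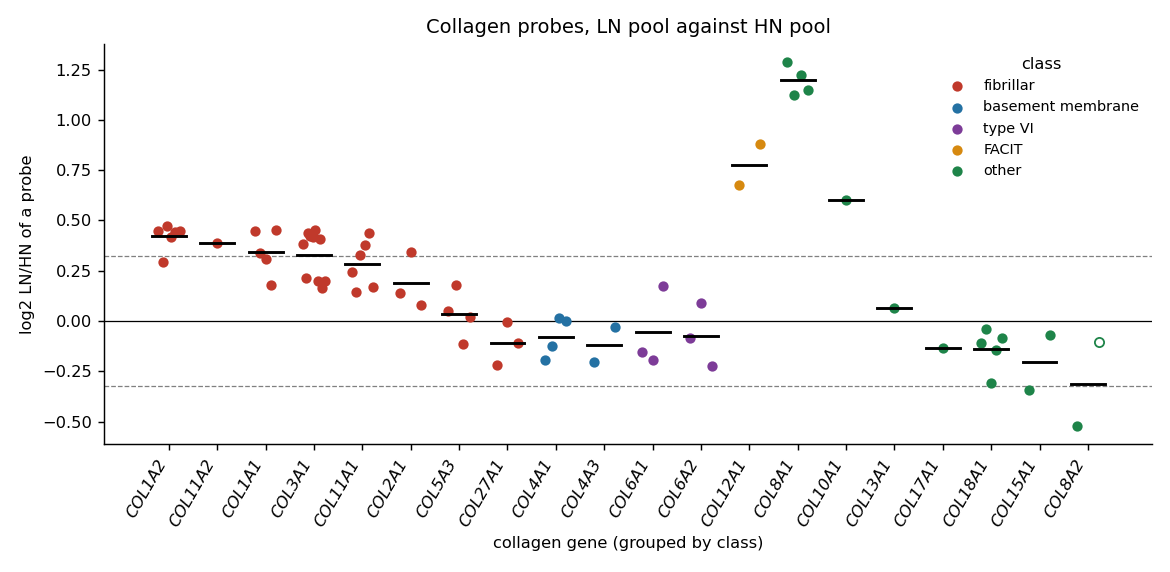
Log2 LN/HN (vertical axis) of each collagen probe, with the genes along the horizontal axis grouped by class and colored as in the key. Black bars are gene means, dashed lines mark the threshold of 0.32 in either direction, and the open circle is a probe that was not well above background on the LN array and whose value is a limit. The probes of *COL1A1*, *COL1A2* and *COL3A1* lie between 0.17 and 0.47, those of *COL8A1* between 1.12 and 1.29, and the type IV and type VI probes between -0.22 and 0.18.

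Among fibrillar collagens, the chains of types I and III were higher in the LN pool. All 21 probes of *COL1A1*, *COL1A2* and *COL3A1* were higher, 14 of them past the threshold. Among all probes with a mean log2 signal of 4 to 16, 2.50% to 13.1% were called higher, depending on the signal. In the fibrillar class as a whole, 7 of 8 genes were higher and 4 were called higher. Over all genes with a fold, 9636 of 19554 were higher and 8.85% were called higher. The median log2 LN/HN of the class was 0.31. It was 0.11 with the normexp correction, 0.19 when scaled by the 75th percentile and 0.19 over probes with a mean log2 signal of at least 6. Probes of the same gene share the same RNA and are no replicates.

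*COL1A1* encodes the more abundant chain of type I collagen. Its 5 probes had log2 signals of 8.35, 9.50, 10.24, 11.60 and 14.71 in the HN pool and of 8.66, 9.68, 10.58, 12.05 and 15.16 in the LN pool. Each probe was thus brighter in the LN pool, and the log2 LN/HN was 0.34 ± 0.11 (SD, 5 probes), a 1.27-fold difference. *COL1A2* encodes the partner chain of the same molecule. The log2 signals of its 6 probes were 5.49, 6.65, 12.66, 13.37, 14.61 and 14.64 in the HN pool and 5.93, 7.07, 12.95, 13.84, 15.06 and 15.08 in the LN pool. Its log2 LN/HN was 0.42 ± 0.065 (SD, 6 probes), a 1.34-fold difference, and its probes ran from 0.29 to 0.47, with 5 of 6 past the threshold. The values of both chains of type I collagen differed by 0.077, less than the SD between the probes of *COL1A1* (0.11) but more than that of *COL1A2* (0.065).

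*COL3A1*, the single chain of type III collagen and an early component of the connective tissue, has 10 probes on the array. They ranged from a log2 signal of 10.82 to 15.53 in the HN pool and from 11.04 to 15.99 in the LN pool. The log2 LN/HN was 0.33 ± 0.12 (SD, 10 probes), and the probes ran from 0.17 to 0.45, with 6 past the threshold. *COL1A1* and *COL3A1* were just past the threshold. In the authors' normalized values they were at 0.32 and 0.31, just short of it. *COL3A1* was also short of it with cyclic loess and with scaling by the 75th percentile.

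The probes of these 3 genes include some of the brightest collagen spots, and the share of probes past the threshold depends on brightness. Among all 3201 probes measured on both arrays with a mean log2 signal of 2 to 4, 26.3% were called higher in the LN pool, but among the 622 probes with a signal of 14 to 16 only 2.89%. Of the 8 collagen probes in this range, 7 were called higher, all of them probes of *COL1A1*, *COL1A2* or *COL3A1*. The exception was a probe of *COL6A1*, with a log2 LN/HN of 0.18. In the range from 12 to 14, 3 of 11 collagen probes were called higher, against 2.50% of 1877 probes. From 10 to 12, 3 of 5 were called higher and 1 lower, against 2.94% and 4.07% of all probes. From 8 to 10, 1 of 11 was called higher and 0 lower, against 3.68% and 5.07%. Probes of a gene read the same RNA, so these counts of probes are not counts of independent members.

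**Figure D2:**
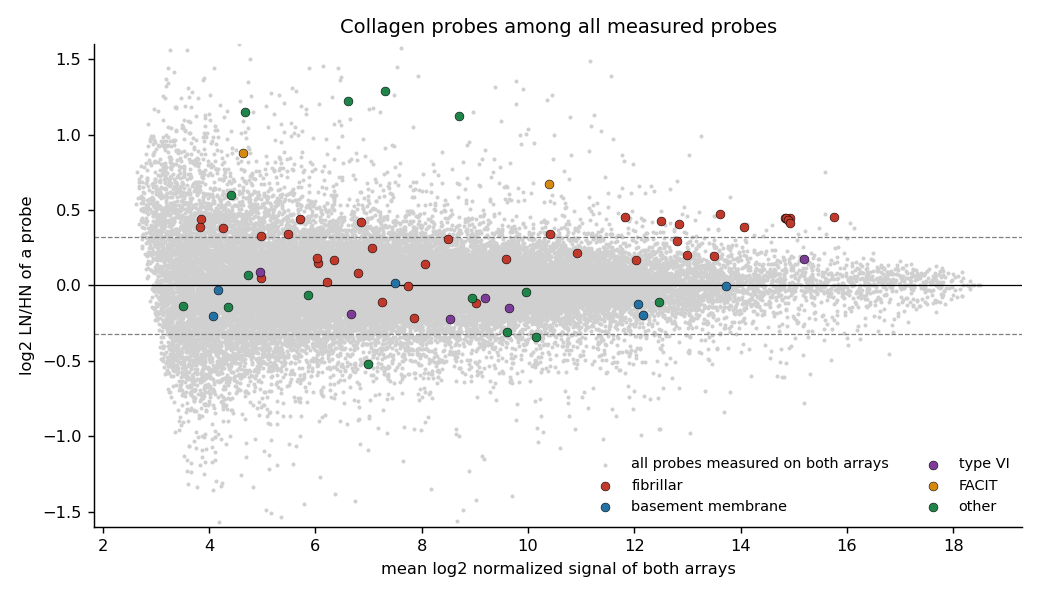
Log2 LN/HN of a probe (vertical axis) against its mean log2 normalized signal on both arrays (horizontal axis). Grey points are all probes measured on both arrays, of which 16 lie beyond the axis limits of 1.6, colored points are collagen probes by class, and dashed lines mark the threshold of 0.32 in either direction. The spread of the grey points narrows from left to right. Of the 8 collagen probes between 14 and 16, 7 lie above the upper line, all of *COL1A1*, *COL1A2* or *COL3A1*.

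The remaining fibrillar collagens are known mainly from cartilage or as minor chains of other fibrils. *COL11A1*, a chain of type XI collagen that starts thin fibrils, had a log2 LN/HN of 0.28 ± 0.12 (SD, 6 probes), and all 6 probes with a fold were higher in the LN pool. With the normexp correction its value was 0.066 and with scaling by the 75th percentile 0.14, and it was called higher in 2 of 13 other settings. *COL11A2*, its partner chain, was at 0.39 from 1 probe, with a log2 signal of 3.63 for HN and 4.02 for LN. This value came from a dim spot and fell short of the threshold in 3 settings. It was 0.071 after the normexp background correction, 0.23 with scaling by the 75th percentile and 0.27 without normalization. When dim probes were kept it was 0.96, a mean that includes a probe detected on neither array. *COL2A1*, the main collagen of cartilage, was at 0.19 ± 0.14 (SD, 3 probes), below the threshold, with log2 signals of 5.32, 6.76 and 7.98 in the HN pool and 5.66, 6.84 and 8.12 in the LN pool. *COL5A3*, a minor chain of type V collagen, was at 0.034 ± 0.12 (SD, 4 probes) with probes on both sides of 0. *COL27A1* was the fibrillar gene with the lowest value, -0.11 ± 0.11 (SD, 3 probes).

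Type IV and type VI collagens lay close to 0. *COL4A1*, which pairs with *COL4A2* in the basement membranes of most tissues, had log2 signals of 7.49, 12.13, 12.26 and 13.73 in the HN pool and of 7.50, 12.01, 12.07 and 13.72 in the LN pool. The groups of values nearly coincided, and the log2 LN/HN was -0.078 ± 0.10 (SD, 4 probes). *COL4A3*, a chain known mainly from the kidney, was at -0.12 ± 0.12 (SD, 2 probes) on signals near a log2 of 4. It was 0.019 after the normexp background correction.

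*COL6A1* and *COL6A2* encode chains of the type VI filaments, and defects in either cause congenital muscle disease in humans. *COL6A1* was at -0.056 ± 0.20 (SD, 3 probes), and its probes disagreed. They had log2 LN/HN values of -0.19, -0.15 and 0.18, of which the last belonged to the brightest probe (log2 signal 15.10 for HN and 15.27 for LN). *COL6A2* was at -0.072 ± 0.16 (SD, 3 probes), with log2 signals of 4.90, 8.64 and 9.22 in the HN pool and 5.00, 8.42 and 9.14 in the LN pool. These 2 genes are direct neighbours among the protein-coding genes of assembly ARS-UCD2.0, and their values differed by 0.016.

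*COL12A1*, the sole FACIT collagen with a matched probe, had the second highest value. It encodes type XII collagen, which lies on the surface of type I fibrils and links them to other matrix proteins. Its 2 probes had log2 signals of 4.21 and 10.06 in the HN pool and of 5.08 and 10.73 in the LN pool. Both were higher in the LN pool, and the log2 LN/HN was 0.78 ± 0.14 (SD, 2 probes), a 1.71-fold difference that exceeded the value of 98.3% of all genes. It was 0.47, the lowest value over all settings, after the normexp background correction.

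*COL8A1* had the highest value of the family. Type VIII collagen is a short-chain collagen that forms open networks and is known from the walls of vessels and from remodeled matrix. The 4 detected probes of *COL8A1* had log2 signals of 4.09, 6.00, 6.67 and 8.14 in the HN pool and of 5.24, 7.23, 7.96 and 9.27 in the LN pool. Each was more than 2-fold brighter in the LN pool. The log2 LN/HN was 1.20 ± 0.074 (SD, 4 probes), a 2.29-fold difference and rank 67 of 19554 genes counted from the highest value. The remaining probe of the gene was not detected on either array. The direction was the same in all 13 other settings, with values between 0.80, after the normexp background correction, and 1.21.

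*COL8A2*, the other chain of type VIII collagen, had the lowest value of the family. Its brighter probe gave 7.25 for HN and 6.73 for LN, so that the log2 LN/HN was -0.52. Its dimmer probe, with 3.13 for HN and 3.02 for LN, was not well above background on the LN array, so its difference of -0.11 counts as a limit. The mean was -0.31 ± 0.29 (SD, 2 probes), just short of the threshold. It was called lower in 7 of 13 other settings, among them the one that used only probes measured on both arrays (-0.52). The probes of *COL8A1*, from 1.12 to 1.29, and those of *COL8A2*, at -0.52 and the limit of -0.11, did not overlap. Of the protein-coding genes next to *COL8A1*, *CMSS1* was at -0.093 and *DCBLD2* at -0.050.

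*COL10A1*, a short-chain collagen known from cartilage that is turning into bone, was at 0.60 from 1 probe, a 1.52-fold difference. The log2 signal rose from 4.11 for HN to 4.71 for LN, in a range where 13.1% of all probes were called higher. After the normexp background correction it was 0.023.

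Among the remaining collagens, those of the vessel and muscle basement membrane zone were lower in every measured probe. *COL18A1*, which carries the sequence of endostatin at its end, was at -0.14 ± 0.10 (SD, 5 probes), with probes from -0.31 to -0.041, and its value was -0.27 when dim probes were kept. *COL15A1*, which is found where basement membranes meet the connective tissue of muscle and capillaries, had log2 signals of 5.90 and 10.32 in the HN pool and of 5.83 and 9.98 in the LN pool. Its log2 LN/HN was -0.20 ± 0.19 (SD, 2 probes), and it was called lower with its brightest probe (-0.34). Neither gene was past the threshold. The transmembrane collagens were measured by 1 dim probe each. *COL13A1*, found at the neuromuscular junction, was at 0.066 with a software error of 0.23, and *COL17A1*, an anchor of skin epithelium, at -0.14 with a software error of 0.31. The value of *COL17A1* ran from -0.52, when dim probes were kept, to -0.0049 with the normexp correction, and it was called lower in 2 of 12 other settings. Neither probe of *COL26A1* was detected on either array.

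Genes that modify, secrete, process or bind collagen were examined in 7 hand-written lists with 102 entries. In chain modification and folding, 17 genes had a value, 10 of them higher and 7 lower in the LN pool, with a median log2 LN/HN of 0.042. The sign of this median depended on the setting, with -0.0185 when the 75th percentile was subtracted and 0.13 with the brightest probe. None of the 17 genes was called higher and 1 was called lower. This was *PLOD3*, a lysyl hydroxylase, at -0.44 ± 0.47 (SD, 3 probes), with probes from -0.99 to -0.14. *SERPINH1*, the chaperone that binds the finished helix, was at 0.25 ± 0.12 (SD, 3 probes), with each probe higher in the LN pool. *P4HA1*, a prolyl hydroxylase needed for a stable helix, was at 0.10 ± 0.28 (SD, 3 probes). *PLOD1* (-0.036) and *PLOD2* (-0.073), further lysyl hydroxylases, lay within 0.1 of 0. The 8 genes of secretion had a median of 0.13, and none was past the threshold in either direction. Their median was 0.0375 after the normexp correction and 0.071 when the 75th percentile was subtracted. No probe was matched to *P4HB* or to *BMP1*, the protease that trims the end of procollagen.

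In propeptide processing, 2 of 5 genes with a value were called higher and none lower, with a median of 0.16, which was 0.27 with only the probes measured on both arrays. They were *PCOLCE2*, an enhancer of the trimming protease, at 0.38 from 1 probe, and *MEP1B*, a protease, at 0.51 from 1 dim probe, with log2 signals of 2.91 (HN) and 3.42 (LN). *PCOLCE*, the related enhancer, was at 0.16 ± 0.050 (SD, 2 probes). Of 15 fibril assembly partners, 11 were higher and 4 lower, with a median of 0.11, and 2 were called higher and 1 lower. The leucine-rich proteoglycans *LUM* (0.35) and *KERA* (0.36), which regulate the spacing of fibrils, were the higher genes, and *EPYC*, a related proteoglycan of cartilage, was the lower one (-0.53, 1 probe). *FN1*, fibronectin, was at 0.035 ± 0.16 (SD, 13 probes), and *SPARC*, a collagen-binding protein, at -0.039 ± 0.13 (SD, 6 probes).

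Basement membrane partners, 7 genes with a value, had a median of -0.031 and no gene past the threshold. Of 9 collagen receptors, 1 was called lower and none higher, with a median of 0.033, which was -0.017 when the 75th percentile was subtracted. The lower gene was *ADGRG1*, an adhesion receptor that binds type III collagen, at -0.62 ± 0.013 (SD, 2 probes). The integrin subunit *ITGB1* was at 0.12 ± 0.099 (SD, 2 probes) and the collagen receptor kinase *DDR2* at 0.16 from 1 probe. Of 12 genes of collagen breakdown and its inhibitors, 4 were higher and 8 lower, with a median of -0.11, which was -0.050 after the normexp correction. *MMP1*, a collagenase, was just past the threshold and lower (-0.32 ± 0.032, SD, 2 probes) on mean log2 signals of 3.81 (HN) and 3.49 (LN), and *MMP2*, a gelatinase, was at -0.061 ± 0.13 (SD, 4 probes). The lists hold few genes each, and these counts stand beside the 8.85% of all genes called higher and the 9.11% called lower.

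**Figure D3:**
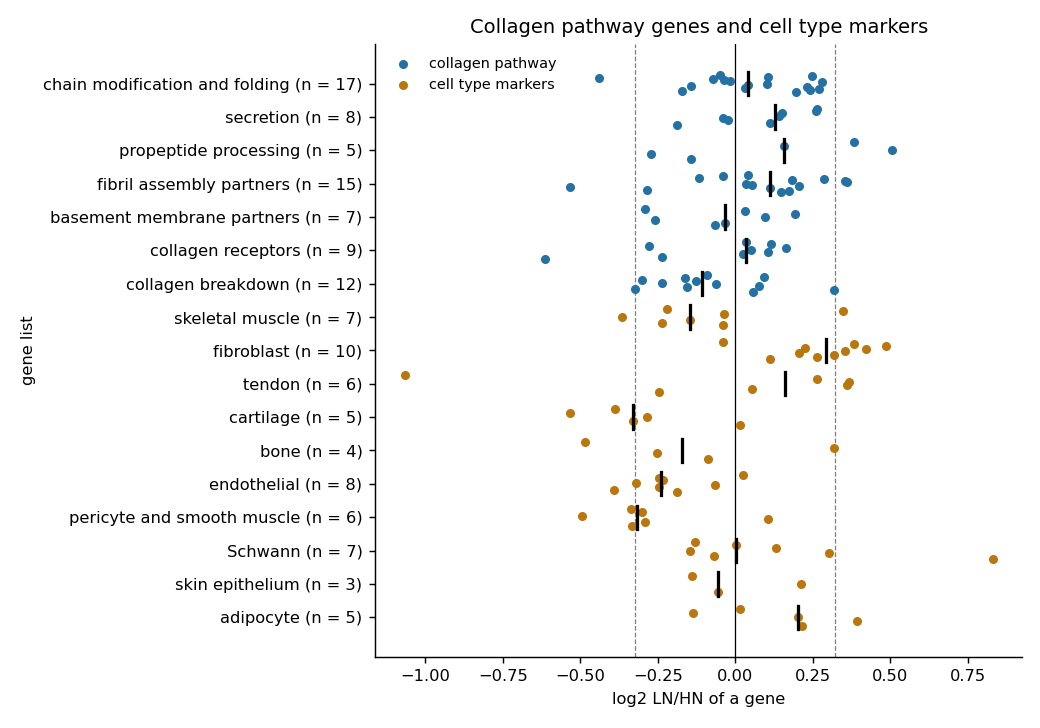
Log2 LN/HN of a gene (horizontal axis) for each gene of the 7 collagen pathway lists (blue) and the 10 lists of cell type markers (orange), with the number of genes with a value beside the list's name. Black bars are medians and dashed lines mark the threshold of 0.32 in either direction. The medians of the pathway lists lie between -0.11 and 0.16, that of the fibroblast markers at 0.29 and that of the pericyte and smooth muscle markers at -0.32.

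Muscle is the tissue that the labels give, and all 7 of 10 muscle markers with a matched probe were detected with log2 signals from 12.79 (*MYH3*, embryonic myosin) to 17.57 (*ACTA1*, skeletal actin) in the HN pool. All 10 fibroblast markers had a value, 9 of them higher in the LN pool and 4 called higher, with a median log2 LN/HN of 0.29, while 8.85% of all genes were called higher. *DCN*, *LUM*, *FBLN1* and *FAP* of this list also stand in the pathway lists. The summed signal of all 10 was 25144 for HN and 29974 for LN, a ratio of 1.19. The muscle markers had a median of -0.15, with 6 of 7 under 0 and 1 called in each direction, and summed signals of 647705 and 603545, a ratio of 0.93. In pooled tissue RNA, more or fewer cells of a type and more or less RNA per cell cannot be told apart. The values of *COL1A1*, *COL1A2* and *COL3A1* (0.33 to 0.42) stood beside that median of 0.29, and those of *COL12A1* (0.78) and *COL8A1* (1.20) beside a highest fibroblast marker of 0.49 (*PDGFRB*, with a probe that is a limit). The part of fibroblast RNA in these results was not tested.

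Markers of cartilage were mostly dim or not detected. *ACAN* and *HAPLN1*, which define this tissue, were not detected on either array, 5 of the 10 listed markers had a value, and the LN pool was lower in 4 of them, with a median of -0.33. The 4 lower markers had dim signals, with a mean log2 of 3.21 to 4.22 in the HN pool, where 16.6% (log2 signal 2 to 4) and 13.1% (4 to 6) of all probes were called lower, whereas *CHAD*, at 9.18, was at 0.016. The genes called lower were *MATN1* (a limit of -0.39), *CNMD* (-0.33) and *EPYC*, and the summed signal of the list was 632 for HN and 624 for LN. Of the tendon markers, *KERA* and *MKX* (0.37) were called higher, whereas *TNMD*, tenomodulin, was at -1.07 from 1 probe, with log2 signals of 6.17 (HN) and 5.10 (LN). These were 2 called higher and 1 called lower of 6, with 8.85% and 9.11% over all genes, and the list had a median of 0.16 and summed signals of 7801 and 9035. Of the bone markers, *IBSP*, *DMP1* and *PHEX* were not detected, and of the 4 with a value 3 were under 0 and 1 above, with a median of -0.17. *SPP1* was called lower (-0.49, 1 probe), *SP7* was at 0.32, just short of the threshold, and *BGLAP*, with a log2 signal of 12.27 for HN, was at -0.25. The summed signals were 5106 and 4322. The part of cartilage, tendon or bone RNA was not tested.

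Most markers of vessels had values under 0, as did *COL15A1* and *COL18A1*. Of 8 endothelial markers 7 were under 0 and 1, *CLDN5*, was called lower (-0.39), with a median of -0.24 and summed signals of 12999.6 (HN) and 10188 (LN). Of 6 pericyte and smooth muscle markers 5 were under 0 and 3 called lower, with a median of -0.32 and summed signals of 13709 and 11195, while 9.11% of all genes were called lower. *COL8A1*, which is known from vessel walls, was called higher. Schwann cell markers had a median of 0.0029 with summed signals of 3774 and 3937, adipocyte markers of 0.20 with 5800 and 6196, and skin epithelium markers, of which *KRT5*, *KRT10* and *TP63* were not detected, of -0.055 with 9697 and 9526. Their part in the results was not tested.

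**Figure D4:**
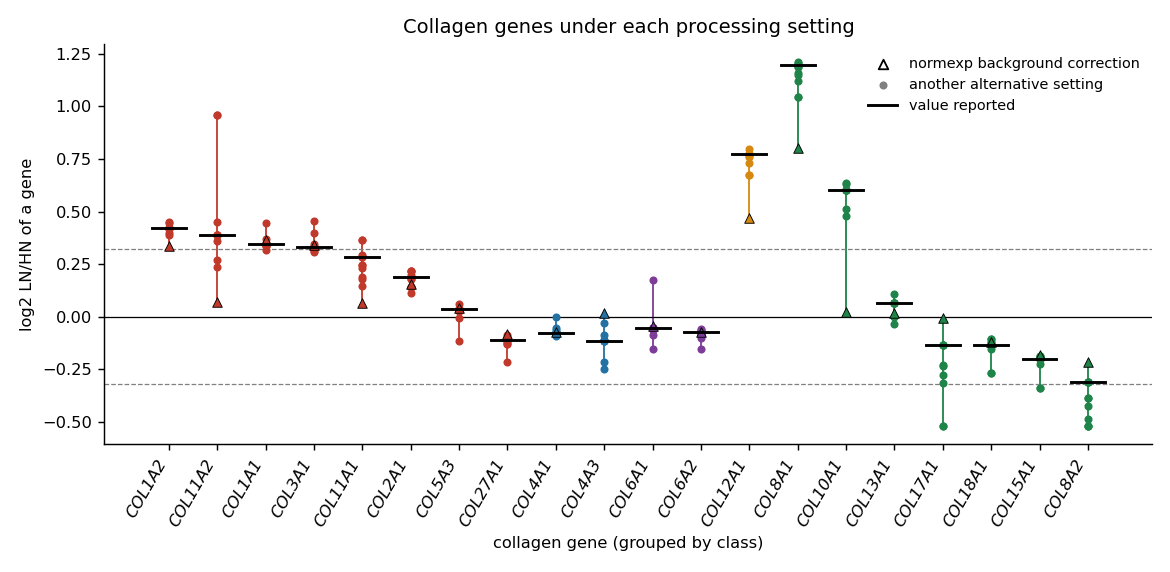
Log2 LN/HN of each collagen gene (vertical axis) under each processing setting that gave a value, with genes along the horizontal axis grouped and colored by class. Black bars are the values reported, points are other settings, triangles are the normexp background correction, vertical lines span the settings and dashed lines mark the threshold of 0.32 in either direction. *COL8A1*, *COL12A1* and *COL1A2* stay above the upper line in every setting, whereas *COL10A1* falls to 0.023 and *COL11A2* to 0.071 under the normexp correction.

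Over 13 other settings, *COL8A1*, *COL12A1* and *COL1A2* were called higher in all 13, *COL1A1* in 12 and *COL3A1* in 10. *COL10A1* was so in 11 of the 12 settings that gave it a value and *COL11A2* in 9 of 12. The count of collagen genes called higher ranged from 5 to 8. After the normexp background correction, which draws dim signals together, it was 5 of 20 genes, while 1.62% of all genes were called higher.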

How the data were processed

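For each group, LT muscle RNA of 4 fetuses was combined, labeled with Cy3 and hybridized to Agilent Bovine (v2) arrays, 1 per group. The authors extracted the spots with Feature Extraction 11.0.1.1 and deposited background-corrected and detrended intensities that were not normalized between arrays. The authors further deposited quantile-normalized values from GeneSpring GX for 30027 probes, whose log2 scale was judged from the values.

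For the values reported, log2 intensities of the 43803 non-control spots were quantile-normalized with limma 3.58.1 in R 4.3.3, 13 spots with an outlier flag were dropped, and replicate spots were averaged. A probe well above background on 1 array gave a limit, the dim side being set to at least the lowest signal so marked (log2 2.27 for HN and 2.82 for LN), and no fold where the bright side did not exceed it. Genes were summarized by the mean over their probes with a fold. Accessions were matched without version to a RefSeq gene table (ARS-UCD2.0), which named 26742 of 43652 probes, and served for names and neighbours only. Further steps used Python 3.11.15, numpy 2.4.6 and pandas 2.3.3, and figures matplotlib 3.10.9. The steps were tested on simulated data.

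Every collagen gene was named. Of each pathway list, the genes past the threshold and 12 preset genes were named, and of cell type markers those past the threshold among cartilage, tendon, bone and skin. A few markers of other cell types, such as *CLDN5* and *PDGFRB*, were also named, whereas further ones past the threshold were only counted or left out. Members, lists and thresholds were chosen with earlier results of these data known. The 14 alternatives cover normalization, background correction (normexp with offset 50), the filter on dim probes, the summary of probes, flagged spots, the threshold and the classes. For normexp, the spot and background medians replaced the planned columns, because no mean signals were available. After the data were seen, 1 more alternative was added.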

Additional observations from a re-analysis of the deposited data

How the results depend on the processing

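The count of collagen genes called higher stayed within 1.5 times of 7 under every setting except the 2-fold threshold, which left 1. The count called lower, 0 as reported, was 1 (*COL8A2*) when the 75th percentile was subtracted, after cyclic loess, without normalization, in the authors' normalized values and with only probes measured on both arrays, and 1 (*COL17A1*) without a filter on dim probes and with probes that were positive and significant. It was 2 (*COL15A1* and *COL8A2*) with the brightest probe and with only probes of a mean log2 signal of at least 6, a setting added after the data were seen. The median of fibrillar collagens was 0.19 after subtraction of the 75th percentile (0.1896) and in the bright probes (0.1869), and 0.11 after the normexp correction. The value of *COL12A1*, which stands for the FACIT class, was 0.47 after the normexp correction and 0.67 with the brightest probe and in the bright probes. The median of type VI collagens was 0.046 with the brightest probe. That of the other collagens was -0.0049 after the normexp correction, -0.24 in the bright probes and 0.066 with *COL15A1* and *COL18A1* counted as basement membrane collagens. The cause of these changes was not tested. Of 254 values of single genes under other settings, 226 moved by less than the SD between the probes of the gene, or by less than 0.0995, the median of that SD over all genes, for the 4 genes with 1 probe with a fold, and none of a called gene changed direction. The 226 do not measure how stable the calls are. They include *COL8A2* at -0.52, as its probes have an SD of 0.29. They also include *COL1A1* and *COL3A1* in the authors' normalized values, where both lost their call. *COL4A3*, *COL5A3*, *COL6A1* and *COL13A1*, which were not called, changed sign in at least 1 setting. Subtraction of the 75th percentile moved the median of all genes to -0.042 and the share of higher genes among those past the threshold from 49.3% to 30.7%, and leaving out normalization moved it to 39.3%. Over all genes, 1731 were called higher and 1781 lower as reported, 319 and 386 after the normexp correction, 3251 and 3592 when dim probes were kept, 3125 and 3777 with probes that were positive and significant and 557 and 700 in the bright probes. No paired analysis was possible because each group has 1 array. The single array per pool limits the precision.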
